A study of Sus scrofa with 6 samples.

Results

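Long noncoding RNAs (lncRNAs) are transcripts without a long open reading frame. Many are made in few tissues, and the gonads are known for the number they express. Some act on the gene beside them, some lie antisense to a gene or inside an intron, and for most no role is known. The lncRNAs described here are those that the study's list of tissue-specific lncRNAs gives to ovary alone. The study made the list from RNA-seq libraries of tissues of the Guizhou miniature pig, a small Chinese breed, with a single library for ovary. The tissues were collected after birth, and 962 rows of that list could be read here. Of these rows, 116 named ovary and no other tissue and were found among the 10813 lncRNAs measured in these samples. They comprised 77 intergenic lncRNAs, 20 of the class that the study placed close to an annotated gene and called cis-regulatory, 12 intronic and 7 antisense lncRNAs. The exon model and the position were at hand for 37 of the 116. The remaining 79 were known by identifier and class only.

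The samples were 6 ovaries labelled 49 days post coitus, 3 from Meishan pigs and 3 from Large White pigs. Meishan is a Chinese breed known for large litters, and Large White is a commercial breed of European origin. No treatment or genotype beyond the breed was given, and no label said whether the replicates came from separate animals, so that a p-value measures the spread between these samples only. Each value was an RPKM, the reads on a feature scaled to its length and to the mapped reads of the sample, and each sample held between 35185781 and 39033204 mapped reads, as recovered from the steps between low values. At this depth 3 reads on a transcript of 1 kb, taken here as the limit that a count of 0 allows, came to 0.0769 to 0.0853 RPKM. That limit covers counting error only.

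The labels did not say whether the ovary was that of a fetus or of the pregnant sow, so the tissue was checked against marker genes. CYP11A1, the first enzyme of steroid synthesis, lay between 506 and 1882 RPKM, and LHCGR, the receptor for luteinizing hormone, between 28.5 and 37.8 RPKM. SCARB1, a receptor that takes up cholesterol from lipoproteins, lay between 252 and 1119 RPKM. CYP17A1, the enzyme that leads to androgens, ranged from 1.28 to 59.2 RPKM. DDX4, a helicase of germ cells, lay between 0 and 1.58 RPKM, and the oocyte factor FIGLA was at 0 in all 6 samples. Of the 6 oocyte markers found, GDF9 alone had a median of at least 1 RPKM, and lay between 1.35 and 2.32 RPKM. ZP3 reached 1.84 RPKM, BMP15 0.862 RPKM, ZP2 0.279 RPKM and NOBOX 0.117 RPKM. The fetal RNA-binding protein gene IGF2BP1 was at 0 in all 6, and AFP, a fetal plasma protein, reached no more than 0.161 RPKM. SCARB1, IGF2BP1 and AFP, and INSL3 and TOP2A below, were chosen after values had been seen. GATA4, a transcription factor of gonadal supporting and steroidogenic cells, lay between 18.1 and 30.4 RPKM and FST, an activin-binding protein, between 6.77 and 37.2 RPKM, both from the list of supporting cells of the fetal ovary. Of that list 4 markers were found, and the other 2 were lower. LHX9 lay between 0.260 and 2.39 RPKM, and LGR5 reached no more than 0.106 RPKM. Of the 7 germ cell markers found, 3 had a median of at least 1 RPKM, KIT at 11.3, DND1 at 1.22 and PRDM1 at 1.03 RPKM. CYP11A1, LHCGR and SCARB1 were thus high and DDX4, FIGLA, IGF2BP1 and AFP low, whereas GATA4, FST, KIT and GDF9 were detected in all 6 samples. Since the labels do not settle the source, the samples are called 49-day ovaries here.

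Meishan 3 stood apart from the other samples. INHA, a hormone subunit of granulosa cells, was at 491 RPKM there and at 2.05 to 4.93 RPKM in the other 5 samples. INSL3, a hormone of theca cells, was at 235 RPKM against 1.04 to 15.6 RPKM, and TOP2A, a gene of dividing cells, at 34.6 RPKM against 1.37 to 1.83 RPKM. FSHR, the other granulosa marker found, was at 6.90 RPKM against 0.221 to 0.679 RPKM. Of the steroidogenic markers, CYP11A1 was lowest in Meishan 3, and CYP17A1, at 59.2 RPKM against 1.28 to 25.7 RPKM, and LHCGR, at 37.8 RPKM against 28.5 to 33.1 RPKM, were highest there. SCARB1, outside that list, was also lowest in Meishan 3, at 252 RPKM against 356 to 1119 RPKM. Over all tested features the log2 values of Meishan 3 correlated with those of the other samples at 0.865 to 0.888, whereas the other pairs reached 0.932 to 0.975. KIT, a receptor of germ and theca cells, was at 1.68, 1.99 and 7.77 RPKM in Meishan and at 16.6, 14.8 and 16.9 RPKM in Large White. In such bulk RNA, fewer cells of one type and less RNA per cell cannot be told apart.

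Most of the 116 ovary-listed lncRNAs were detected in the 49-day ovaries, at low levels. A median above 0 over the 6 samples was found for 83 of them (71.6%), a median of at least 0.1 RPKM for 76 and of at least 0.5 RPKM for 52. Of the 116, 53 were above 0 in all 6 samples, 99 in at least 1, and 17 were at 0 throughout. A median of at least 10 RPKM was reached by 5 lncRNAs, and 32 lay from 1 up to 10 RPKM. The 6 highest held 45.5% of the summed median of 194 RPKM. By class, a median above 0 was found for 52 of the 77 intergenic, 17 of the 20 cis-regulatory, 8 of the 12 intronic and 6 of the 7 antisense lncRNAs.

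Among the 17 at 0, a length was known for 4. For all 4 the limit that a count of 0 allows, at most 0.420 RPKM, was below the value of the listed ovary, so that the listed level was within reach of this depth. The other lengths had to be recovered from values above 0. Lengths of 103 ovary-listed lncRNAs ranged from 203 to 9295 bases with a median of 590 bases, against 652 bases for the 6783 lncRNAs with a length. The 83 with a median above 0 had a median length of 674 bases, and the 20 with a length and a median of 0 had 379.5 bases. A recovered length is the shortest that fits the values, so it may be too short where few reads were seen. The contrast in length may come in part from this recovery. Longer transcripts collect more reads at the same level, and the part of length in detection was not tested.

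The lncRNAs listed for testis or for a somatic tissue had lower shares at each limit. A median above 0 was found for 145 of the 274 listed for 1 somatic tissue (52.9%), for 162 of the 498 listed for testis alone (32.5%) and for 35.1% of all lncRNAs. At 0.5 RPKM the shares were 44.8% for ovary alone, 18.6% for a somatic tissue, 12.9% for testis alone and 12.4% for all lncRNAs. The 24 lncRNAs listed for ovary together with another tissue had shares of 75% above 0 and 41.7% at 0.5 RPKM, close to those of ovary alone. These shares are descriptions of lists of unequal size that were read only in part, and no test was made of them. Within the ovary-listed lncRNAs, 20 had been at 0 in the other 8 listed tissues, and 7 of these 20 had a median above 0 here, against 76 of the other 96.

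**Figure D1:**
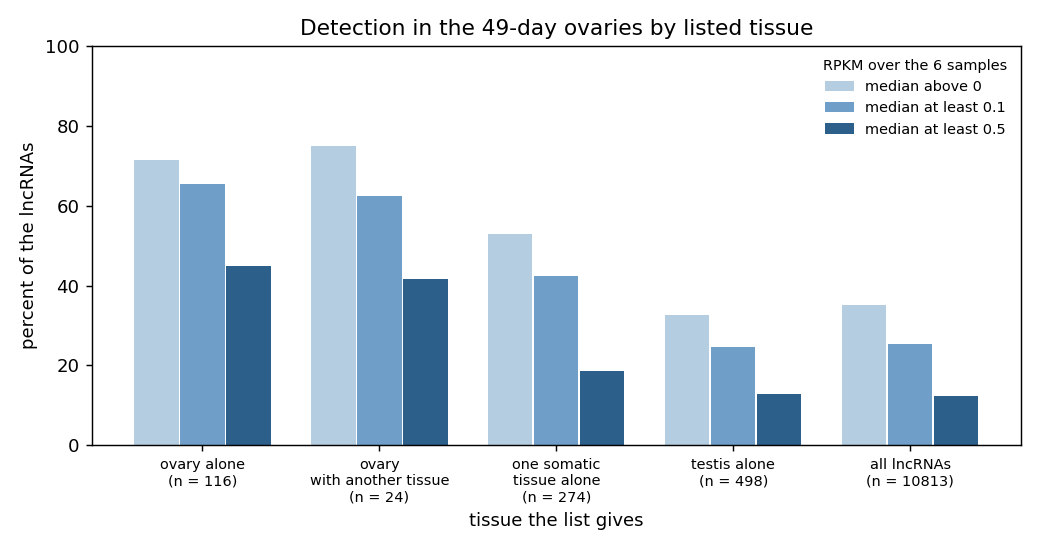
Bars give the percent of the lncRNAs of each listed tissue, and of all lncRNAs, whose median RPKM over the 6 samples was above 0, at least 0.1 or at least 0.5. Both lists that contain ovary stand above the others, with 71.6% and 75% above 0, against 52.9% for a somatic tissue and 32.5% for testis.

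The highest of the 116 was TCONS_00147832, a cis-regulatory lncRNA of 2 exons on chr12:21108261-21109123 (build Sscrofa10.2, plus strand). Its neighbour gene in the catalogue was ACLY, which encodes the enzyme that makes cytosolic acetyl-CoA for fatty acid and cholesterol synthesis. TCONS_00147832 was at 16.4, 20.9 and 104 RPKM in Meishan and at 20.3, 19.4 and 27.5 RPKM in Large White. Meishan 3 was thus 3.79 times the highest other sample, with 2748 reads against 404 to 692, and the breeds overlapped. ACLY was at 152, 146 and 58.1 RPKM in Meishan and at 172, 197 and 183 RPKM in Large White, lowest in the sample where TCONS_00147832 was highest. The log2 fold change of TCONS_00147832 between Meishan and Large White, on the log2(RPKM + 1) scale, was 0.56 ± 0.62 (SE, adjusted p = 0.70, limma), and it was -0.25 without Meishan 3. INHA, INSL3 and TOP2A were also highest in Meishan 3, and their part in the value of TCONS_00147832 was not tested.

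Next in level came 5 intergenic lncRNAs whose position was not at hand. TCONS_00069513 was at 17.5, 16.2 and 12.02 RPKM in Meishan and at 27.2, 20.03 and 11.2 RPKM in Large White, where Large White 1 and 2 lay above the whole range of Meishan and Large White 3 below it. TCONS_00133909 was at 9.17, 18.0 and 8.80 RPKM in Meishan and at 19.3, 17.7 and 14.1 RPKM in Large White. Meishan 1 and Meishan 3 were low and Meishan 2 was among the Large White values.

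TCONS_00145280 varied least of the tested ovary-listed lncRNAs, at 16.8, 15.3 and 12.05 RPKM in Meishan and 14.5, 16.7 and 14.9 RPKM in Large White, with a coefficient of variation over the 6 samples of 11.6%. The median coefficient of variation of the tested ovary-listed lncRNAs was 53.8% and the highest 135%. TCONS_00073605 was at 9.22, 10.5 and 7.61 RPKM in Meishan and at 13.0, 11.9 and 10.4 RPKM in Large White, and the breeds overlapped by 1 sample on each side. TCONS_00092627 was at 9.80, 9.02 and 7.29 RPKM in Meishan and at 10.7, 10.1 and 8.01 RPKM in Large White, with broad overlap. In all 3 of these lncRNAs, Meishan 3 was the lowest sample.

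**Figure D2:**
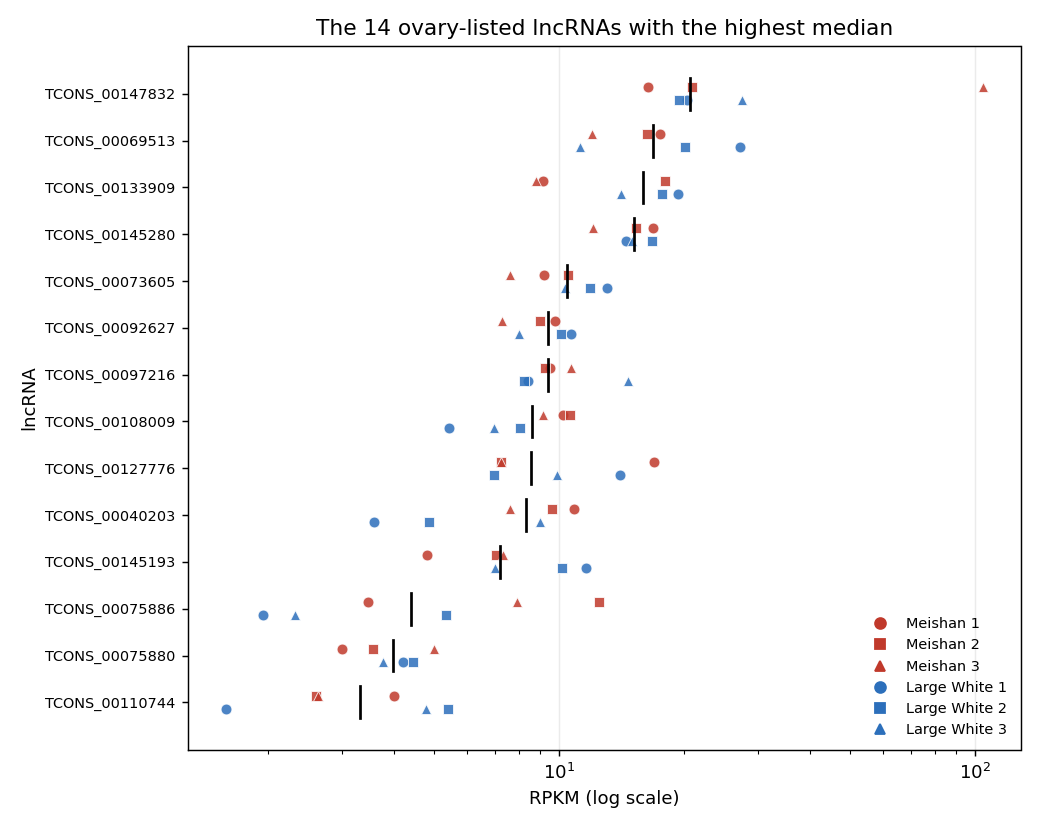
Points give the RPKM (log axis) in each of the 6 samples of the 14 ovary-listed lncRNAs with the highest median, which a black bar marks. TCONS_00147832 in Meishan 3, at 104 RPKM, stands apart from its 5 other values of 16.4 to 27.5, and most other rows span both breeds.

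The levels were then set against the value of the listed ovary. That value came from 1 library of another breed, taken after birth by the study's account, without a replicate. Breed, library and any difference in stage cannot be told apart in this comparison. A lncRNA entered the list because its value there was high, so a lower value in any other library is built into the choice. The median over the 6 samples was above the listed value for 21 of the 116, by 2-fold or more for 7. It was within 2-fold for 30, above 0 but 2-fold or more below for 46, and 0 for 33. All 6 samples lay below the listed value for 70 lncRNAs, all 6 above it for 7, and on both sides for 39. The median ratio was 0.467 among the 83 with a median above 0 and 0.281 over all 116. Across the 116 lncRNAs, which share the 6 libraries, the ranks of the median and of the listed value correlated with a rho of 0.42. Among the 103 with a length, 24 had fewer than 10 recovered reads in the listed ovary, with a rho of -0.20. The 79 with 10 or more had a rho of 0.54. Of the 21 above the listed value, 6 were among the 24 and 15 among the 79. The median lay above the value of every other listed tissue for 48 lncRNAs.

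A median above the listed ovary was also found for 20.8% of the lncRNAs listed for ovary with another tissue, 24.5% of those of testis and 30.3% of those of a somatic tissue, against 18.1% of those of ovary alone. The lists of testis and of somatic tissues were not chosen for a high value in ovary. Only 169 of the 498 and 149 of the 274 had a listed ovary value above 0, and for the rest any median above 0 counted as above. By class, the 21 comprised 12 intergenic, 6 cis-regulatory, 2 intronic lncRNAs and 1 antisense lncRNA.

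**Figure D3:**
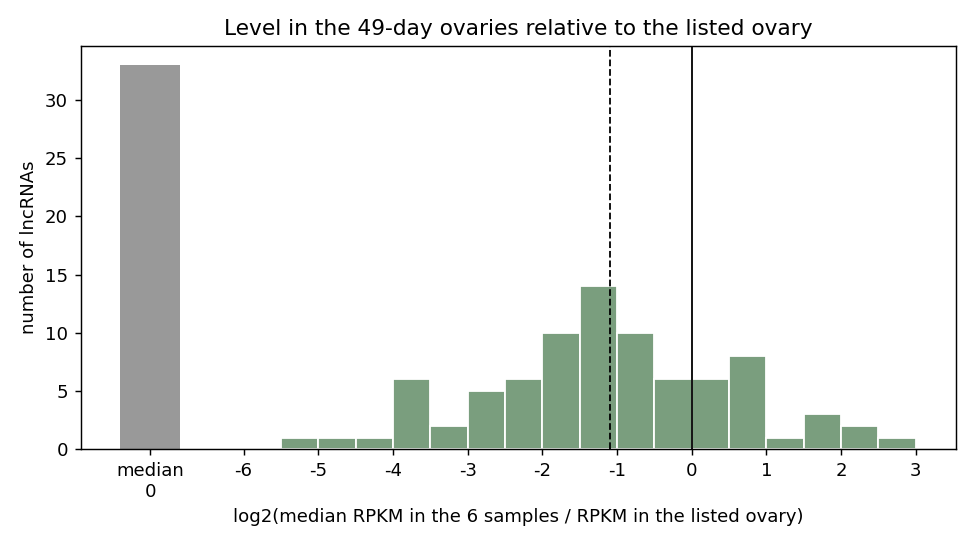
The histogram gives the number of ovary-listed lncRNAs by log2 ratio of the median RPKM in the 6 samples to the RPKM of the listed ovary, with the 33 whose median was 0 in the separate grey bar. The solid line marks equal levels and the dashed line the median of the 83 others, at -1.10; 21 lie to the right of the solid line.

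The 7 lncRNAs above the listed ovary in every sample were TCONS_00133909, TCONS_00075886, TCONS_00145280, TCONS_00147832, TCONS_00145193, TCONS_00108009 and TCONS_00147712. The largest ratio was that of TCONS_00133909, 6.25, followed by TCONS_00075886 with 5.26 and TCONS_00145280 with 4.62. The ratio of TCONS_00075886 rested on fewer than 10 recovered reads in the listed ovary. TCONS_00109041, with the next largest ratio of 3.63, rested on few reads. It was at 3.71, 1.87 and 3.38 RPKM in Meishan and at 0.521, 3.03 and 1.47 RPKM in Large White, from 5 to 37 reads, and 5 of the 6 samples were above the listed ovary. TCONS_00147832 had a ratio of 2.90. TCONS_00145193, at 4.80 to 11.6 RPKM, and TCONS_00147712 were named after their values were seen.

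At the other end, among lncRNAs above 0 in all 6 samples, TCONS_00075861 had the lowest ratio, 10.7-fold below the listed ovary. It was at 0.396, 0.487 and 1.21 RPKM in Meishan and at 2.88, 1.74 and 1.07 RPKM in Large White, from 4 to 28 reads. TCONS_00062609 lay 6.84-fold below, at 0.0748, 0.477 and 0.315 RPKM in Meishan and 1.13, 1.64 and 0.0366 RPKM in Large White. Its highest and its lowest value were both in Large White.

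TCONS_00100251 lay 6.42-fold below, at 0.305, 0.225 and 1.14 RPKM in Meishan and 0.132, 0.331 and 0.166 RPKM in Large White. Meishan 3 was its highest sample. TCONS_00075860 lay 6.30-fold below the listed ovary and is described with the interferon cluster.

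Among the 4 lncRNAs with the highest value in the listed ovary, TCONS_00069513 had a ratio of 0.25 to the listed ovary and TCONS_00075861 was 10.7-fold lower. TCONS_00127776 was at 17.0, 7.25 and 7.25 RPKM in Meishan and at 14.02, 6.98 and 9.90 RPKM in Large White, 1.84-fold below the listed ovary by its median. The first replicate of each breed was high, and the other 4 samples lay below 10 RPKM. TCONS_00097216 was at 9.52, 9.25 and 10.7 RPKM in Meishan and at 8.42, 8.22 and 14.6 RPKM in Large White, 1.29-fold below. Only Large White 3 exceeded the listed value.

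No ovary-listed lncRNA passed the test between the breeds. The test was limma on log2(RPKM + 1) across all features with at least 0.5 RPKM in at least 3 samples, and a call needed a fold change of at least 2 and a Benjamini-Hochberg adjusted p under 0.05. Of the 116, 54 were tested and 0 called, where 0.758% of all 14902 tested features and 0.925% of the 1514 tested lncRNAs were called. An unadjusted p under 0.05 was found for 10 of the 54 (18.5%), against 15.9% of all features and 14.7% of lncRNAs. Among these 10, 7 were higher in Meishan and 3 in Large White. Limma-voom on the recovered reads, an alternative test, also called 0, with 6 at an unadjusted p under 0.05. A log2 fold change above 0 was found for 33 of the 54 (61.1%), against 47% of all features and 58.1% of lncRNAs. Their median log2 fold change was 0.13, beside -0.03 over all features and 0.09 over lncRNAs. For 25 of the 54 the 95% interval of the log2 fold change on the log2(RPKM + 1) scale lay within -1 and 1. That scale understates the change of low lncRNAs, so the interval does not bound the ratio of their RPKM values.

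The breeds did not overlap for 9 of the 54 lncRNAs (16.7%), against 23.6% of all features and 18% of lncRNAs. Of the 9, 5 were higher in Meishan (9.94% of all features were) and 4 in Large White (13.6% of all features were). Over lncRNAs alone the shares were 10.4% and 7.6%. These shares are near or below the background. TCONS_00035255, among the 4 higher in Large White, passed the filter through that breed alone, so its lack of overlap is tied to the filter.

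**Figure D4:**
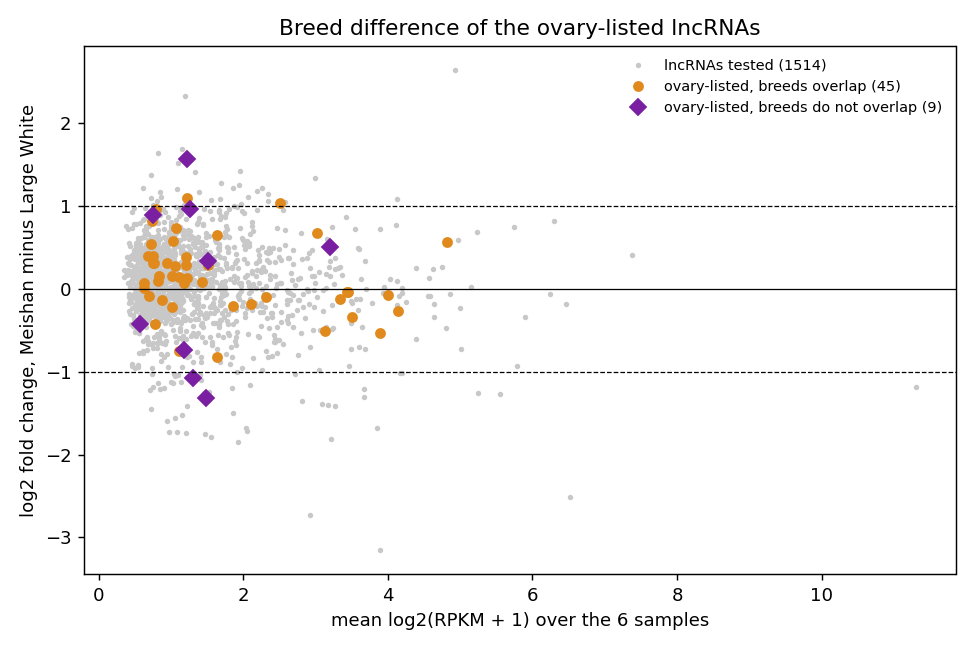
Each point is a tested lncRNA, by its mean log2(RPKM + 1) over the 6 samples and its log2 fold change between Meishan and Large White, with dashed lines at a change of 2-fold. The 54 ovary-listed lncRNAs lie among the 1514 lncRNAs; 9 (diamonds) do not overlap between breeds, and 5 lie beyond a dashed line.

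TCONS_00075875, an antisense lncRNA of the interferon cluster described below, had the largest log2 fold change, 1.56 ± 0.32 (SE, adjusted p = 0.0877, limma). It was 3.09 with a pseudocount of 0.1 and 3.41 in limma-voom, and was called in neither. TCONS_00133012, intergenic, was at 1.67, 2.15 and 3.55 RPKM in Meishan and at 1.07, 1.12 and 0.169 RPKM in Large White. All 3 Meishan values were above all 3 Large White values, with a log2 fold change of 0.96 ± 0.31 (SE, adjusted p = 0.21, limma).

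TCONS_00147406 is a cis-regulatory lncRNA on chr12:18811589-18812596 (Sscrofa10.2, plus strand) whose neighbour gene was ADAM11, a membrane protein of the disintegrin and metalloprotease family. It was at 1.20, 1.93 and 0.859 RPKM in Meishan and at 0.526, 0 and 0.217 RPKM in Large White, higher in all 3 Meishan samples (log2 fold change 0.90 ± 0.26, SE, adjusted p = 0.17, limma). With a pseudocount of 0.1 the log2 fold change of TCONS_00147406 was 2.33, and in limma-voom 3.57, uncalled in both. ADAM11 was at 0.701, 1.49 and 0.578 RPKM in Meishan and at 0.228, 0.164 and 0.410 RPKM in Large White, with a log2 fold change of 0.58 and an adjusted p of 0.30 in limma. The order of the samples was the same for both within Meishan and differed within Large White. ADAM11 passed the filter through Meishan alone, so its lack of overlap between the breeds is tied to the filter.

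TCONS_00108009 had the most reads among the 4 lncRNAs with the largest rise whose breeds did not overlap, with 631 to 1306 reads. It was at 10.21, 10.6 and 9.13 RPKM in Meishan (9.993 ± 0.774, SD, n = 3) and at 5.43, 8.03 and 6.99 RPKM in Large White (6.82 ± 1.31, SD, n = 3). Its log2 fold change was 0.50 ± 0.18 (SE, adjusted p = 0.24, limma), with a 95% interval of 0.09 to 0.92.

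In the other direction, TCONS_00086364 had the largest difference. This cis-regulatory lncRNA, on chr1:303802939-303841589 (Sscrofa10.2, minus strand) with the neighbour gene C9orf50, was at 1.80, 0.966 and 0 RPKM in Meishan and at 3.23, 2.56 and 4.66 RPKM in Large White. Meishan 3 held 0 reads, and the log2 fold change was -1.32 ± 0.38 (SE, adjusted p = 0.17, limma), or -2.57 with a pseudocount of 0.1 and -2.82 in limma-voom. C9orf50 was also lowest in Meishan 3, at 0.0896 RPKM beside 2.29 to 5.60 RPKM in the other samples.

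TCONS_00138850, intergenic, was at 0.834, 1.04 and 0.301 RPKM in Meishan and at 2.70, 3.70 and 1.64 RPKM in Large White (log2 fold change -1.08 ± 0.28, SE, adjusted p = 0.14, limma). TCONS_00059163, antisense to HTR1B, a serotonin receptor, on chr1:99413925-99466246 (Sscrofa10.2, minus strand), was at 1.27, 0 and 1.35 RPKM in Meishan and at 2.21, 1.46 and 2.14 RPKM in Large White. Its breeds were separated by 1.35 and 1.46 RPKM only, and the adjusted p was 0.34 in limma. HTR1B followed the same samples, at 0.769, 0.0458 and 1.18 RPKM in Meishan and 1.57, 0.956 and 1.17 RPKM in Large White, and was lowest in Meishan 2 as TCONS_00059163 was. HTR1B overlapped between the breeds, with an adjusted p of 0.47 in limma. The libraries were strand-specific and the study's methods counted reads by strand, but carry-over of reads between the strands was not tested.

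TCONS_00035255, intergenic, was at 0.223, 0.341 and 0.314 RPKM in Meishan and at 0.567, 0.666 and 0.972 RPKM in Large White, from 18 to 80 reads (log2 fold change -0.42 ± 0.20, SE, adjusted p = 0.35, limma). The breeds did not overlap, but the change was small on this scale because the level was below the pseudocount of 1. The 33 tested lncRNAs outside the rule that chose which to describe had log2 fold changes of -0.82 to 1.10 and adjusted p-values of at least 0.24, and the breeds overlapped for 32 of them.

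The samples also differed among themselves. Of the 116, between 69 (Large White 3) and 87 (Meishan 3) were above 0 in a sample, and the other 2 Meishan samples held 84 and 78 and the other 2 Large White samples 83 and 73. Meishan 3 was the highest sample for 15 of the 54 tested lncRNAs and the lowest for 12, and Large White 2 was the highest for 4 and the lowest for 12. Meishan 3 exceeded every other sample at least 2-fold for 3 of the 54, TCONS_00147832, TCONS_00075875 and TCONS_00145626, the last of them named after its values were seen, at 3.69 RPKM against at most 1.21 RPKM. Over all lncRNAs Meishan 3 also held the most above 0, 4630 against 3102 to 3943.

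Of the lncRNAs with a known position, 7 lay together in the type I interferon gene cluster of chromosome 1, between bases 224991409 and 225345759 of Sscrofa10.2, all on the minus strand. Type I interferons are secreted proteins that induce antiviral genes, and the pig has many copies of them in this cluster. The copies are near-identical, so that reads can be split between them, and the values of the genes and of lncRNAs that overlap them are uncertain for that reason. Of the cluster's lncRNAs, 3 were antisense to an interferon gene and the others were classed as intronic.

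TCONS_00075875 (chr1:225074055-225104264, 2 exons), antisense to the gene that the catalogue names IFN-ALPHA-11, was at 2.06, 2.41 and 5.20 RPKM in Meishan and at 0.536, 0.630 and 0 RPKM in Large White. These values came from 16, 19 and 43 reads and from 4, 5 and 0 reads, and the breeds did not overlap. IFN-ALPHA-11 was at 1.20, 0.985 and 2.77 RPKM in Meishan and at 0.312, 0.245 and 0.147 RPKM in Large White, with a log2 fold change of 1.05 and an adjusted p of 0.14 in limma. Both were highest in Meishan 3 and lowest in Large White 3. IFN-ALPHA-11 passed the filter through Meishan alone, so its lack of overlap is tied to the filter.

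TCONS_00075886 (chr1:225160239-225335085, 2 exons), antisense to IFN-OMEGA-6, was at 3.48, 12.5 and 7.92 RPKM in Meishan and at 1.94, 5.34 and 2.32 RPKM in Large White. Large White 2 lay above Meishan 1, and the log2 fold change was 1.04 ± 0.44 (SE, adjusted p = 0.31, limma). IFN-OMEGA-6 was at 4.53, 9.85 and 8.67 RPKM in Meishan (7.69 ± 2.79, SD, n = 3) and at 1.39, 2.05 and 1.17 RPKM in Large White (1.54 ± 0.459, SD, n = 3). It was the one neighbour gene of an ovary-listed lncRNA that was called, with a log2 fold change of 1.73 ± 0.28 (SE, adjusted p = 0.0459, limma). The call was close to its threshold and was lost in 11 of 14 alternative fits, with an adjusted p of 0.126 in limma-voom. Without Meishan 2 the adjusted p was 0.115, and without Large White 1, 2 or 3 it was 0.260, 0.200 or 0.192.

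TCONS_00075860 (chr1:224991409-225063811, 2 exons), antisense to IFN-OMEGA-2, was at 0.406, 0.932 and 1.44 RPKM in Meishan and at 0.703, 0.793 and 0.133 RPKM in Large White. IFN-OMEGA-2 was at 0.334, 0.610 and 2.15 RPKM in Meishan and at 0.893, 0.839 and 0.468 RPKM in Large White. Both overlapped between the breeds and were highest in Meishan 3.

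**Figure D5:**
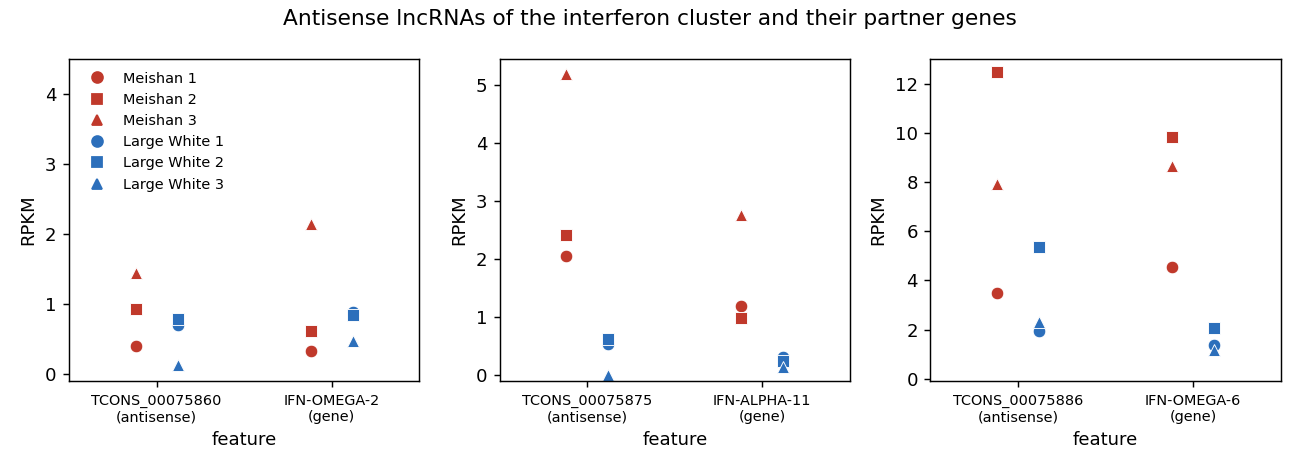
Points give the RPKM in each of the 6 samples of the 3 antisense lncRNAs of the interferon cluster and of their partner genes, Meishan in red and Large White in blue. The breeds do not overlap for TCONS_00075875, IFN-ALPHA-11 and IFN-OMEGA-6, and overlap for TCONS_00075886, TCONS_00075860 and IFN-OMEGA-2. IFN-ALPHA-11 passed the filter of the test through Meishan alone.

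The intronic lncRNAs of the cluster did not follow one pattern. TCONS_00075880 (chr1:225112683-225177887) was the steadiest, at 3.01, 3.56 and 5.01 RPKM in Meishan and 4.23, 4.46 and 3.77 RPKM in Large White. Its log2 fold change was -0.10, with a 95% interval of -0.56 to 0.35. TCONS_00075861 (chr1:225015991-225041014), given above, had a log2 fold change of -0.75 ± 0.29 (SE, adjusted p = 0.27, limma), the opposite sign to TCONS_00075875, and its breeds overlapped.

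TCONS_00075878 (chr1:225085112-225345759, 6 exons) held 14, 0 and 24 reads in Meishan and 0 in each Large White sample, where the limit that a count of 0 allows was at most 0.0829 RPKM. It shares 57 exon bases with TCONS_00075875, of the same locus, and was too low to be tested. TCONS_00075885 (chr1:225157504-225333123) was at 0 in all 6 samples, with a limit of at most 0.0863 RPKM.

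The catalogue named 40 neighbour genes for the 37 ovary-listed lncRNAs with a known position, as host, antisense partner or nearest gene. Of the 40, 37 were in the tables, 28 were tested, 1 was called higher in Meishan (IFN-OMEGA-6) and 0 lower, and 5 had an unadjusted p under 0.05. In all features, 0.215% were called higher in Meishan and 0.544% lower. The median log2 fold change of the neighbour genes was -0.04, beside -0.03 over all features. Of the 37 lncRNAs, 31 shared no exon base on their strand with another lncRNA of the catalogue rows that could be read. TCONS_00086364 shared 73 of 334 bases, and reads on those bases cannot be assigned to one transcript.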

How the data were processed

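Ovary RNA was depleted of ribosomal RNA and sequenced as strand-specific paired-end libraries. The deposited values were RPKM per lncRNA and protein-coding gene; the authors aligned reads with TopHat (the submitters' notes name TopHat2 2.1.0) to Sscrofa10.2 and counted with HTSeq. Mapped reads were recovered from the RPKM steps of lncRNAs with a catalogue length (whole within 0.0001 reads). Each other length was the shortest that made the reads whole, in the listed ovary too where one was found. Whole reads are therefore no check of these lengths. The same search gave the catalogue length for 1305 of 1386 catalogued lncRNAs (94.2%). limma 3.58.1 (R 4.3.3) was fitted to log2(RPKM + 1) over all features with at least 0.5 RPKM in at least 3 samples, Meishan against Large White. The fit was also run on simulated data in which only features of higher level were changed. That run does not measure the power for low lncRNAs. Values of the listed ovary served for ratios, counts and the search for lengths only. Catalogue and list were read as far as they were at hand, and sequences were not used here. Gene symbols came from a table of identifiers or, for the interferons, HTR1B and C9orf50, from the catalogue. The members and lists were chosen with earlier results of these data known. Named were the 6 highest medians, the 4 largest rises and 4 largest falls without overlap between breeds, the 4 highest and 4 lowest ratios to the listed ovary (lowest only if above 0 in all 6 samples), the 4 highest listed values, and the interferon cluster. Alternatives covered the pseudocount, filter, scaling, eBayes trend, replicate block, limma-voom on recovered reads, and leaving out each sample.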

Additional observations from a re-analysis of the deposited data

How the results depend on the processing

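The count of 0 called lncRNAs held under every setting run, with a smallest adjusted p of 0.0867 to 0.334 with all samples and of 0.0626 to 0.318 with 1 sample left out. With the replicate block limma called 0, with a smallest adjusted p of 0.115. Deviations of same-numbered samples correlated at -0.04, 0.12 and 0.15, each from 1 pair, which cannot show whether they share more than a number. Against 83 detected lncRNAs, 52 had a median of at least 0.5 RPKM, 53 were above 0 in all 6 samples, and 78 to 81 were counted with 1 sample left out. Against 21 above the listed ovary, 7 were above it by 2-fold, and 19 to 22 were counted with 1 sample left out. The sign of an uncalled log2 fold change turned in 18 of 291 fits of 21 named lncRNAs, and the cause was not tested. With 1 sample left out, TCONS_00147832 ranged from -0.25 (without Meishan 3) to 1.05 and TCONS_00069513 from -0.60 to 0.0016. TCONS_00075880 ranged from -0.27 to 0.0254, TCONS_00145280 from -0.17 to 0.0584, TCONS_00127776 from -0.41 to 0.20 and TCONS_00097216 from -0.17 to 0.21. With quantile normalization, upper quartile scaling and limma-voom, TCONS_00145280 came to 0.0093, 0.0059 and 0.0594, TCONS_00127776 to 0.0074, 0.039 and 0.12, and TCONS_00097216 to 0.0171, 0.0364 and 0.11. With a pseudocount of 0.1 and in limma-voom, log2 fold changes of low lncRNAs were over 1.5 times as large and uncalled: 1.74 and 1.98 for TCONS_00133012, -1.81 and -1.82 for TCONS_00138850, -1.79 and -2.25 for TCONS_00059163, and -1.07 and -1.16 for TCONS_00035255. IFN-OMEGA-6 kept its direction in all fits, with log2 fold changes of 1.54 to 2.37. Few reads limit most of the 116 lncRNAs, and the listed ovary has no replicate.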
